A study of Mus musculus with 2 samples.

Results

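Mgp, Spp1, Sparc, Ecm1, Efemp1 and Thbs2 encode 6 secreted matrix proteins, and they are followed here by the cells that hold their transcripts. They were chosen by name out of 27514 genes measured in both libraries, with their levels in the epithelial and stromal cells of these cultures known. Their levels are therefore given as a description. Intestinal adenoma organoids were derived from C57BL/6 mice of the genotype ApcMin/+, which carry a truncating allele of the Wnt pathway inhibitor Apc, at 17 weeks of age, and were measured by single-cell 3′ RNA sequencing. One culture was grown with RSPO1-Fc, an antibody Fc fusion of the Wnt agonist R-spondin 1, and the other, the control, without it. The treatment protocol gives the dose as 10 µg/ml, while another label of the treated sample repeats the number with milligrams as the unit. With 1 library in each group, differences could not be checked against replicates and were not tested.

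Matrix Gla protein (Mgp) is a vitamin K-dependent inhibitor of calcification and of bone morphogenetic proteins, made mostly by vascular smooth muscle, cartilage and fibroblasts. Spp1 encodes osteopontin, an integrin and CD44 ligand that macrophages and injured epithelia secrete. Sparc, a collagen-binding matricellular protein, and Thbs2, thrombospondin 2, an inhibitor of vessel growth, are usually stromal. Ecm1 encodes a glycoprotein that binds several basement membrane and matrix proteins, and Efemp1 encodes fibulin-3, a glycoprotein of elastic tissues. In intestinal tumours, transcripts of such proteins are often taken as a sign of stroma, while adenoma epithelium can also make some of them.

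In GRCm38 the genes lie at chr6:136872435-136875823 on the minus strand (Mgp), chr5:104435118-104441050 on the plus strand (Spp1), chr11:55394500-55423183 on the minus strand (Sparc), chr3:95734147-95739569 on the minus strand (Ecm1), chr11:28853204-28926743 on the plus strand (Efemp1) and chr17:14665500-14694235 on the minus strand (Thbs2). All 6 are protein coding. The annotation places the microRNA gene Mir7014 inside Ecm1 and the gene model Gm42793 inside Spp1 on the same strand, and neither is listed in either count table.

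RefSeq's promoter table for GRCm38.p6 had entries for 5 of the 6 genes. The 250 bases before the start are printed for Efemp1, the gene that was higher in RSPO1-Fc epithelial cells, and, as examples of the genes that were lower, for Ecm1 and Spp1. Ecm1 is chr3:95739570-95739819 on the minus strand, Spp1 is chr5:104434861-104435110 on the plus strand and the first of 2 entries, and Efemp1 is chr11:28852955-28853204 on the plus strand. Capitals mark matches to 4 motifs searched on both strands, namely the AP-1 site TGANTCA, the TATA box TATAAA, the TCF/LEF core CTTTGA, and the RUNX core ACCACA, none of which overlapped another match.
Ecm1: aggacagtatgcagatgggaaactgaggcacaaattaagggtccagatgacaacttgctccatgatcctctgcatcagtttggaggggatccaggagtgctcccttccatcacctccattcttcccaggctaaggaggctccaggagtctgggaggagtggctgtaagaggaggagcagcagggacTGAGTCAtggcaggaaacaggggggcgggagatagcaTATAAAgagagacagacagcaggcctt
Spp1: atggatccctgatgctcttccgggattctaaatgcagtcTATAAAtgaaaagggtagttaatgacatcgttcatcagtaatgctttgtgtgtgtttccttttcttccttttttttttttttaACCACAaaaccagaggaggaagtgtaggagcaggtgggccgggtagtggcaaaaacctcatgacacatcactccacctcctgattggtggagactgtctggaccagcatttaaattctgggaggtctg
Efemp1: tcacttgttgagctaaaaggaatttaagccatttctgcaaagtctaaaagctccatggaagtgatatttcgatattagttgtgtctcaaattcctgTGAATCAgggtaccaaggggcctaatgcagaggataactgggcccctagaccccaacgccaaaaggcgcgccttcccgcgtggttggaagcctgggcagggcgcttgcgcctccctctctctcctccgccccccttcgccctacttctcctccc

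Ecm1 held an AP-1 match 64 bases and a TATA match 27 bases before its start. Spp1 held a TATA match at 211 and a RUNX match at 128 bases, and Efemp1 an AP-1 match at 154 bases. Of the windows not printed, that of Thbs2 held a TATA match on the opposite strand at 126 bases, and those of Sparc and of the second Spp1 entry held no match. Of 32851 promoter windows of this length, 6.75% held the AP-1 letters, 12.4% the TATA box, 13.8% the TCF/LEF core and 14.0% the RUNX core. The TCF/LEF letters, the core bound by the factors through which Wnt signalling acts, were in none of the 3 printed windows. The motifs were chosen after the sequences had been seen, and a match is a description of letters only.

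The libraries held 89437327 (RSPO1-Fc) and 91675581 (control) unique molecular identifiers (UMIs, counted molecules). Barcodes with at least 5960 and 9810 UMIs were called cells, 2767 in the RSPO1-Fc and 2269 in the control library, where the protocol aimed at 5000 each, and no cell barcode was shared. Epithelial cells were called cells with at least 5 UMIs of Epcam, an epithelial adhesion molecule. They numbered 2751 in the RSPO1-Fc library and 1881 in the control library, with medians of 23548 and 27736 UMIs. Control cells under that limit were named from markers as 66 fibroblast-like, 79 endothelial-like, 34 pericyte-like and 173 macrophage-like cells, with medians between 12879 and 17489 UMIs, and 36 cells (1.59% of control cells) stayed unassigned. In the RSPO1-Fc library 16 cells fell under the Epcam limit and 0 met the rule of a stromal class. No class had a marker of another class among its 10 leading genes, which held 3 own markers in each, such as Col3a1, Dcn and Pdgfra in fibroblast-like and C1qa, C1qb and C1qc in macrophage-like cells. The same markers had assigned the cells, so their place among the leading genes is no independent check of the classes. The pericyte-like cells also held fibroblast markers, at a summed 11627 CPM (UMIs of a gene per 1000000 UMIs of the group), against 22582 CPM in fibroblast-like cells.

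Genes of sex and gut segment differed between the cultures. Xist, the RNA of the inactive X chromosome, had 3 UMIs in RSPO1-Fc and 100820 in control epithelial cells, while the Y-linked Ddx3y and Eif2s3y had 2366 and 3980 UMIs in RSPO1-Fc and 0 in control epithelial cells. Hoxb13, a homeobox gene of the distal gut, had 0 and 6997 UMIs, and Gata4, a factor of the proximal small intestine, had 3090 and 1 UMIs, each first in RSPO1-Fc and then in control epithelial cells. The barcode lists also differ in length, 737280 in the RSPO1-Fc and 6794880 in the control library. RSPO1-Fc, animal, gut segment and library preparation cannot be told apart as sources of any difference between the cultures.

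Of the 6 genes, 5 were at least 2-fold lower and 1, Efemp1, at least 2-fold higher in RSPO1-Fc than in control epithelial cells. The same rule, at least 20 CPM in either group and at least a 2-fold difference, called 18.7% of 6911 genes lower and 7.23% higher. The 6 genes were picked with this contrast known, so nothing is read from their count. Their median log2 ratio, with a pseudocount of 1 CPM, was −4.66, against −0.18 over all genes at 20 CPM. Under TMM scaling (edgeR), which raised log2 ratios by 0.34 before the pseudocount was added, 766 genes were lower and 985 higher, in place of 1289 and 500, and the directions of the 6 genes did not turn.

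Mgp had 22 UMIs, or 0.313 CPM (95% interval 0.196 to 0.474), in RSPO1-Fc epithelial cells and 79511 UMIs, or 1189 CPM (1180 to 1197), in control epithelial cells, a 3798-fold lower level (2509 to 6061). All intervals cover counting error only, not variation between cells or cultures. The 22 UMIs lay in 17 of 2751 cells with at most 4 UMIs in a cell. In control epithelial cells 1462 of 1881 cells (77.7%, exact binomial interval 75.8 to 79.6) held at least 1 Mgp UMI, with a median of 8 and a highest value of 1758.

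Thbs2 stood at 0.114 CPM (0.0491 to 0.224) in RSPO1-Fc and 30.9 CPM (29.6 to 32.3) in control epithelial cells, 272-fold lower (138 to 630). Sparc stood at 0.370 CPM (0.242 to 0.542) in RSPO1-Fc and 45.6 CPM (44.0 to 47.2) in control epithelial cells, 123-fold lower (83.9 to 189). Its control value rested on few cells, described with the stromal markers. Spp1 stood at 0.569 CPM (0.407 to 0.775) in RSPO1-Fc and 33.8 CPM (32.4 to 35.2) in control epithelial cells, 59.4-fold lower (43.5 to 83.3). The control level of Spp1 was 19.9 CPM in the epithelial cells with 0 stromal marker UMIs and 14.6 CPM after a subtraction of free RNA, and at these levels Spp1 was not called.

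Ecm1 had the highest level of these 5 genes in RSPO1-Fc epithelial cells. It had 497 UMIs, 7.07 CPM (6.46 to 7.72), in 326 RSPO1-Fc epithelial cells and 8351 UMIs, 125 CPM (122 to 127), in 1418 control epithelial cells, 17.7-fold lower (16.1 to 19.4). Efemp1 ran the other way, with 1916 UMIs, 27.3 CPM (26.1 to 28.5), in 962 RSPO1-Fc epithelial cells and 29 UMIs, 0.434 CPM (0.290 to 0.623), in 16 control epithelial cells, 62.9-fold higher (43.6 to 94.1). Efemp1 was thus found in 35.0% of RSPO1-Fc epithelial cells, against 0.851% of control epithelial cells.

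**Figure D1:**
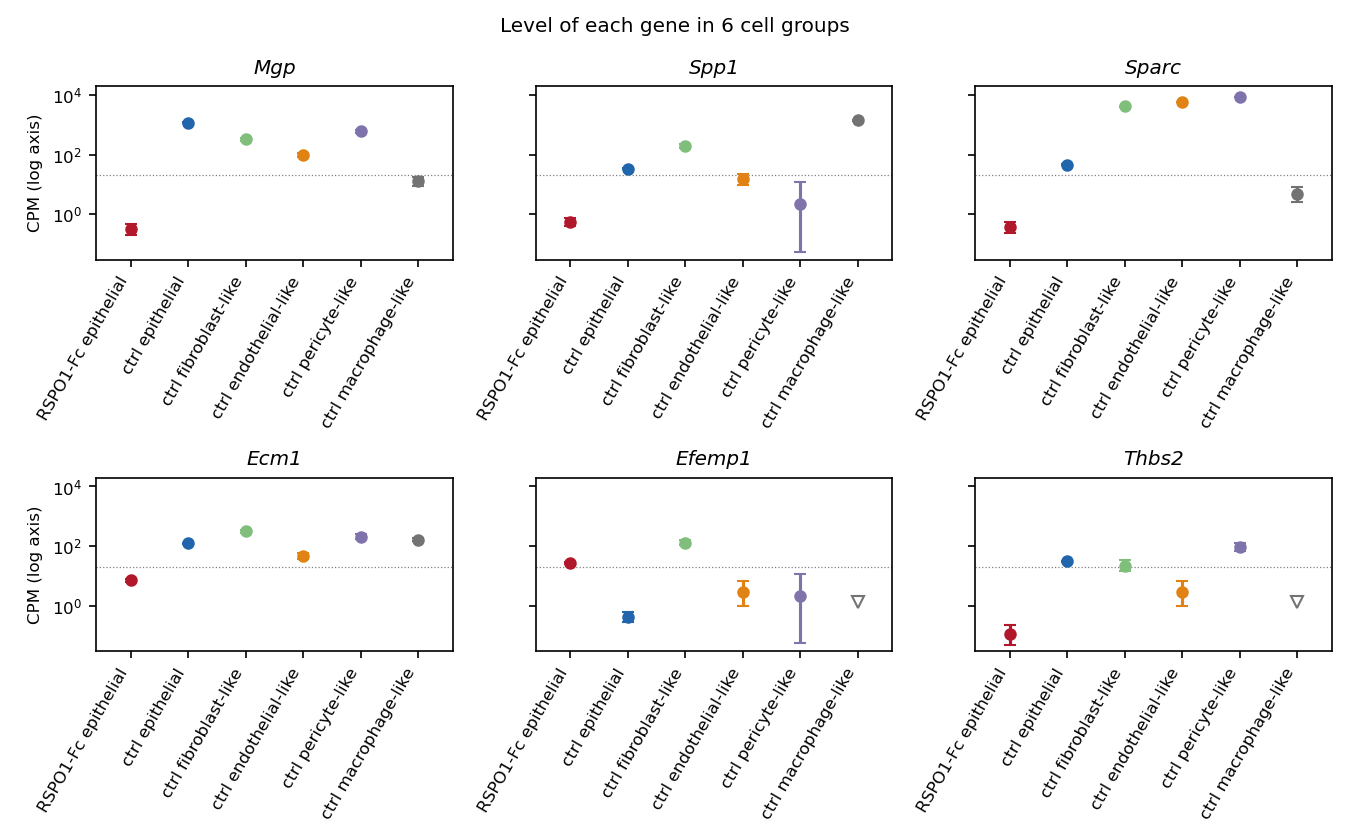
CPM of each gene on a log axis in RSPO1-Fc epithelial cells, control epithelial cells and 4 control stromal classes. Points are summed UMIs over all cells of a group, bars 95% Poisson intervals, open triangles the upper bound where no UMI was found, and the dotted line 20 CPM. Mgp is highest in control epithelial cells at 1189 CPM, while Sparc is at 4194 CPM or more in 3 stromal classes.

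Within the control culture the epithelial and stromal levels fell into different orders for each gene. Mgp was highest in epithelial cells at 1189 CPM, followed by pericyte-like cells at 606 CPM (537 to 681), fibroblast-like cells at 327 CPM (293 to 364), endothelial-like cells at 99.7 CPM (85.1 to 116) and macrophage-like cells at 12.7 CPM (8.84 to 17.7). The epithelial level was 1.96-fold that of pericyte-like cells (1.75 to 2.21) and 93.6-fold that of macrophage-like cells (67.3 to 134). In fibroblast-like cells 318 of 336 Mgp UMIs came from 1 cell, and without it the class stood at 17.8 CPM. In endothelial-like cells 1 cell held 69 of 166 UMIs, leaving 58.7 CPM in the others, and in pericyte-like cells 1 cell held 81 of 282, leaving 442 CPM. Only 9 of the 34 pericyte-like cells held Mgp, and 5 of them held 5 or more UMIs. The log2 ratio of the epithelial to the pericyte-like level lay between 0.84 and 5.47 under 11 alternatives of processing. Some of these redrew the class, and a cell limit of 0.2 of the percentile left 2 pericyte-like cells. An Mgp UMI was found in 77.7% of epithelial cells, against 21.2% of fibroblast-like, 21.5% of endothelial-like, 26.5% of pericyte-like and 17.9% of macrophage-like cells. The macrophage-like cells held at most 2 Mgp UMIs each, and the fibroblast-like and endothelial-like shares lay within the macrophage-like interval (12.5 to 24.5%), so those shares are not read as expression. With each cell thinned to 3000 UMIs, an expected 52.4% of epithelial, 6.74% of fibroblast-like, 8.32% of endothelial-like, 17.2% of pericyte-like and 3.60% of macrophage-like cells held Mgp.

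Thbs2 stood at 30.9 CPM in epithelial cells and was highest in pericyte-like cells at 92.4 CPM (66.9 to 124), which rested on 43 UMIs in 21 of 34 cells. The epithelial level was 1.38-fold (0.918 to 2.18) that of fibroblast-like cells at 22.4 CPM (14.2 to 33.6), within counting error. Endothelial-like cells had 5 UMIs, 3.0 CPM (0.975 to 7.01), and macrophage-like cells had 0 UMIs in 173 cells, which allows up to 1.09 CPM, so the epithelial level was at least 28.4-fold higher.

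Ecm1 was spread over every control cell group. It stood at 125 CPM in epithelial cells, against 319 CPM (286 to 356) in fibroblast-like, 208 CPM (169 to 254) in pericyte-like, 166 CPM (151 to 182) in macrophage-like and 46.9 CPM (37.0 to 58.5) in endothelial-like cells. Epithelial cells thus ranked between macrophage-like and endothelial-like cells. The intervals of pericyte-like and macrophage-like cells overlapped, and those of the other neighbours in this order did not. All 66 fibroblast-like cells held an Ecm1 UMI.

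Sparc, unlike Mgp, was lower in epithelial cells than in 3 of the 4 stromal classes, with 45.6 CPM in epithelial cells, against 8503 CPM (8240 to 8772) in pericyte-like, 5826 CPM (5711 to 5943) in endothelial-like and 4194 CPM (4069 to 4321) in fibroblast-like cells. The epithelial level was 187-fold, 128-fold and 92.0-fold lower in the same order of classes. Every pericyte-like, endothelial-like and fibroblast-like cell held Sparc. Against macrophage-like cells, at 4.72 CPM (2.51 to 8.06), the epithelial level was 9.66-fold higher (5.64 to 18.2).

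Spp1 stood at 33.8 CPM in epithelial cells, against 1420 CPM (1375 to 1465) in macrophage-like cells, 42.0-fold lower in epithelial cells (39.9 to 44.3). Of 173 macrophage-like cells 84 held an Spp1 UMI, and 1 of them held 958 of the 3914 UMIs. The fibroblast-like level of 194 CPM (168 to 223) came from 1 cell with 194 of 199 UMIs and was 4.98 CPM without it, which places fibroblast-like cells below epithelial cells. Endothelial-like cells stood at 15.0 CPM (9.72 to 22.2), again with 20 of 25 UMIs in 1 cell, and pericyte-like cells had 1 UMI, 2.15 CPM (0.0544 to 12.0).

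Efemp1 was highest in fibroblast-like cells of the control culture, with 29 UMIs (0.434 CPM) in epithelial cells and 134 UMIs, 130 CPM (109 to 154), in 27 of 66 fibroblast-like cells, a 301-fold lower epithelial level (200 to 466). Endothelial-like cells held 5 UMIs, pericyte-like cells 1 and macrophage-like cells 0. The 27.3 CPM of RSPO1-Fc epithelial cells lay between the control fibroblast-like level and all other groups.

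By the call rule, control epithelial cells were higher than fibroblast-like cells in 1 gene (Mgp) and lower in 4 (Spp1, Sparc, Ecm1 and Efemp1), where 20.5% of 7766 genes were higher and 19.6% lower. Against endothelial-like cells 4 were higher (Mgp, Spp1, Ecm1 and Thbs2) and Sparc was lower, with 19.6% and 19.7% of 7596 genes. Against pericyte-like cells Spp1 was higher and Sparc and Thbs2 were lower, with 22.5% and 19.7% of 7733 genes. Against macrophage-like cells Mgp, Sparc and Thbs2 were higher and Spp1 was lower, with 28.2% and 17.8% of 7477 genes.

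Counted as molecules, the epithelial cells held most of the Mgp, Thbs2 and Ecm1 in the control cells, as they held most UMIs of all genes. They held 98.9% of the Mgp, 96.5% of the Thbs2 and 88.8% of the Ecm1 UMIs, where they held 91.2% of all UMIs and 82.9% of the cells. The Ecm1 share thus lay under the share of all UMIs, and those of Mgp and Thbs2 over it. They held 35.3% of the Spp1 UMIs, against 61.1% in macrophage-like cells. Of the Sparc UMIs 13.6% were in epithelial, 43.4% in endothelial-like, 19.3% in fibroblast-like and 17.7% in pericyte-like cells. Of 180 Efemp1 UMIs 16.1% were in epithelial and 74.4% in fibroblast-like cells. The numbers of cells recovered by dissociation set these shares along with the level per cell.

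**Figure D2:**
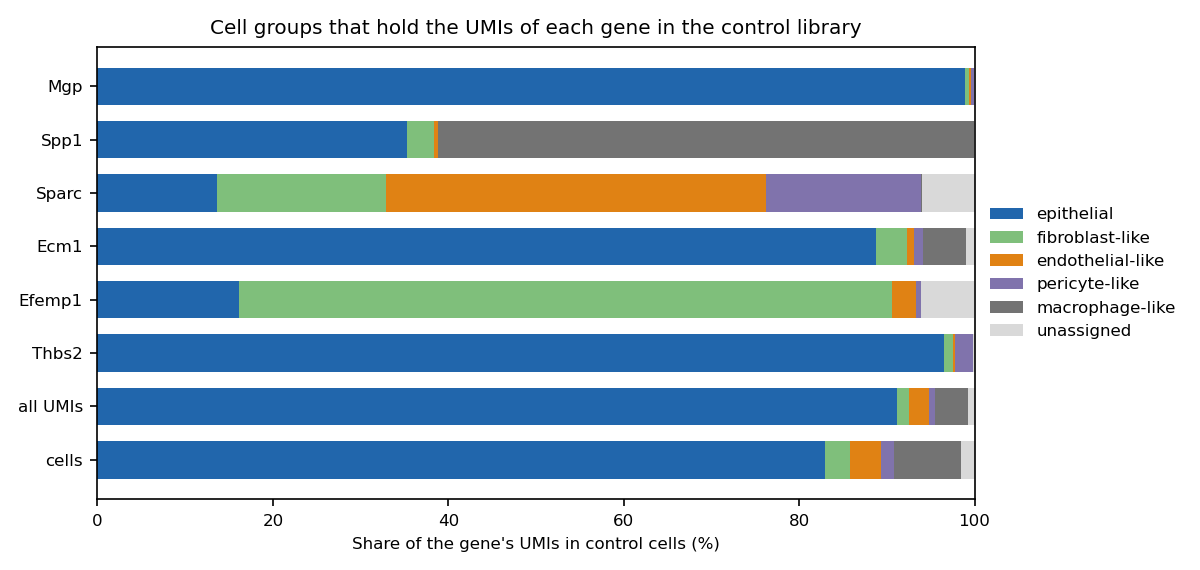
Share in percent of each gene's UMIs in called control cells held by each cell group, with the same shares for all UMIs and for cells in the lower bars. Epithelial cells hold 98.9% of Mgp, 96.5% of Thbs2 and 88.8% of Ecm1 UMIs, and 13.6% of Sparc UMIs.

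Stromal transcripts in the epithelial cells were counted beside these levels, since doublets were not called and free RNA can enter any droplet. The 8 fibroblast, 8 endothelial, 9 pericyte and 8 macrophage markers summed to 1.02, 28.7, 12.3 and 4.11 CPM in RSPO1-Fc and to 60.5, 60.8, 42.8 and 91.2 CPM in control epithelial cells. In RSPO1-Fc epithelial cells Kdr, Cspg4, Kcnj8, Abcc9, C1qb, C1qc, Adgre1 and Tyrobp had 0 UMIs, while every one of these markers had a UMI in control epithelial cells. Other markers did not part the libraries in this way. Cdh5 had 790 UMIs in RSPO1-Fc and 741 in control epithelial cells, and Egfl7 1171 and 942. Acta2 had 744 and 1137 UMIs and Cd68 244 and 463, in the same order. Whether such transcripts came from stromal cells was not tested. In the control 90 epithelial cells held 20 or more UMIs of all listed markers together, with a median of 38056 UMIs against 27432 in the other 1791, and in the RSPO1-Fc library 2 did. Those 90 cells held 79.0% of the epithelial Sparc UMIs and 65.5% of the 29 Efemp1 UMIs. They held 22.5% of the Spp1, 6.97% of the Ecm1, 5.35% of the Mgp and 4.74% of the Thbs2 UMIs.

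The 90 cells were sorted by the class whose markers they held most. Sparc stood at 2657 CPM in the 10 with fibroblast, 1029 CPM in the 21 with endothelial, 589 CPM in the 13 with pericyte and 5.41 CPM in the 46 with macrophage markers. Spp1 stood at 265 CPM in the 46 with macrophage markers and at 3.02 CPM in the 21 with endothelial markers. Efemp1 stood at 46.9 CPM in the 10 with fibroblast markers and at 0.541 CPM or less in the other sets. Ecm1 was between 103 and 201 CPM and Thbs2 between 21.2 and 33.9 CPM in the 4 sets. Mgp was between 1037 and 1235 CPM in all 4 sets. Without the 90 cells, an alternative chosen after seeing the data, control epithelial cells stood at 10.1 CPM Sparc, 27.8 CPM Spp1, 123 CPM Ecm1, 31.2 CPM Thbs2 and 1193 CPM Mgp, so the Sparc level fell under 20 CPM and the Mgp, Ecm1 and Thbs2 levels were close to those of all epithelial cells.

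In the 407 control epithelial cells with 0 UMIs of these markers Mgp stood at 1493 CPM, Ecm1 at 123 CPM, Thbs2 at 25.8 CPM, Spp1 at 19.9 CPM and Sparc at 11.4 CPM. In the 1139 RSPO1-Fc epithelial cells with 0 such UMIs Efemp1 stood at 26.7 CPM, against 0.207 CPM in the 407 control cells. Just inside the Epcam limit, 34 control cells with 5 to 9 Epcam UMIs stood at 2952 CPM Mgp and 1242 CPM Sparc, and just outside it 88 cells with 1 to 4 stood at 244 CPM Mgp and 3082 CPM Sparc. Just above the UMI limit 27 cells stood at 2971 CPM Mgp, and just under it 16 stood at 1314 CPM.

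Droplets too small to be called cells gave a measure of free RNA and debris. Barcodes with over 100 and up to 500 UMIs held 81.0 CPM Mgp (75.9 to 86.4) in the RSPO1-Fc library, where the epithelial cells stood at 0.313 CPM, and 859 CPM (838 to 881) in the control library. The RSPO1-Fc barcodes also held 35.8 CPM Sparc (32.5 to 39.5), against 0.370 CPM in epithelial cells. Efemp1, at 30.6 CPM (27.5 to 34.0), was near its epithelial level, and Thbs2 had 0 UMIs. From 500 to 2000 UMIs the RSPO1-Fc barcodes held 11.4 CPM Mgp, and from 2000 UMIs to the cell limit 0 UMIs.

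**Figure D3:**
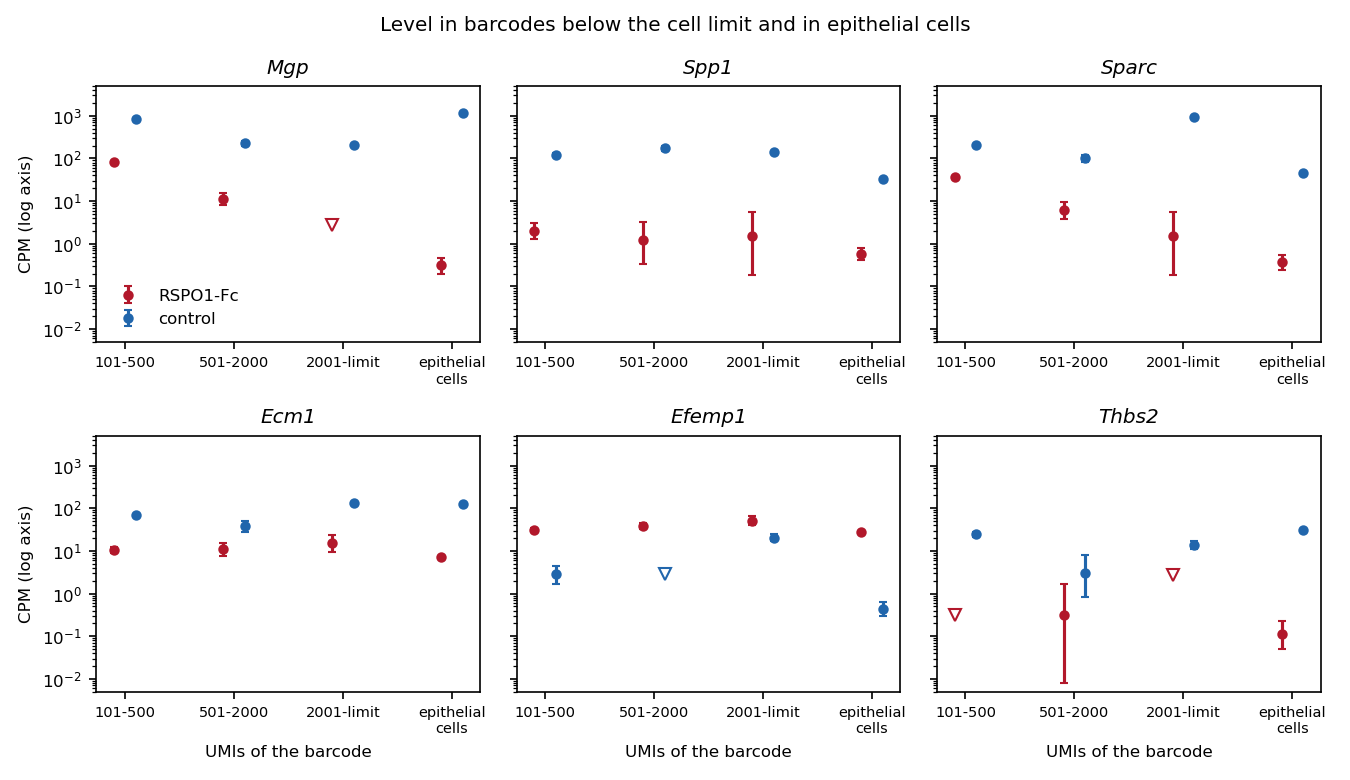
CPM of each gene on a log axis by the UMI total of the barcode, in the RSPO1-Fc and control libraries, from 3 ranges under the cell limit to the epithelial cells. Bars are 95% Poisson intervals and open triangles the upper bound where no UMI was found. In the RSPO1-Fc library Mgp is at 81.0 CPM in the smallest barcodes and 0.313 CPM in epithelial cells, while Efemp1 stays between 27.3 and 51.5 CPM.

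The profile of the small control barcodes was subtracted at 17.8% of epithelial UMIs, a fraction set from the summed macrophage and endothelial markers. In control epithelial cells this left 1260 CPM Mgp, 137 CPM Ecm1, 32.3 CPM Thbs2, 14.6 CPM Spp1, 10.3 CPM Sparc and 0 CPM Efemp1. Spp1 and Sparc thereby fell under 20 CPM. Doublets also carry those markers, and some markers were found in epithelial cells of the library without stromal classes. Cdh5 stood at 11.2 CPM and Egfl7 at 16.7 CPM in RSPO1-Fc epithelial cells. The small control barcodes held 859 CPM Mgp, while macrophage-like cells stood at 12.7 CPM. They held 123 CPM Spp1, while pericyte-like cells stood at 2.15 CPM. Both cell levels are below 17.8% of the small-barcode level. The parts of free RNA, doublets and epithelial transcripts in the 17.8% were not tested, so the levels left by the subtraction depend on an unchecked fraction. A smaller fraction would take less Spp1 and Sparc away.

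The epithelial cells differed widely among themselves. With each cell thinned to 3000 UMIs, an expected 52.4% of control epithelial cells held Mgp, 26.8% Ecm1, 6.67% Thbs2, 4.41% Spp1 and 3.02% Sparc. Unthinned, these shares were 77.7%, 75.4%, 32.4%, 16.1% and 11.7%. In macrophage-like cells, whose median was 14614 UMIs, the unthinned shares were 17.9% for Mgp, 6.94% for Sparc and 0% for Thbs2 (0 of 173 cells, which allows up to 1.73%), while Spp1 was in 1 of 34 pericyte-like cells. The 5% of control epithelial cells with most UMIs of a gene held 36.5% of the Mgp, 31.0% of the Ecm1, 48.4% of the Thbs2, 85.6% of the Spp1 and 95.9% of the Sparc UMIs. The Sparc and Spp1 UMIs were thus the most concentrated. Those of Mgp were also uneven, with 54.4% in the top 10% of cells and 76.1% in the top 20%. In RSPO1-Fc epithelial cells the top 5% held 37.3% of the Efemp1 UMIs, and an expected 6.91% of cells held Efemp1 after thinning.

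**Figure D4:**
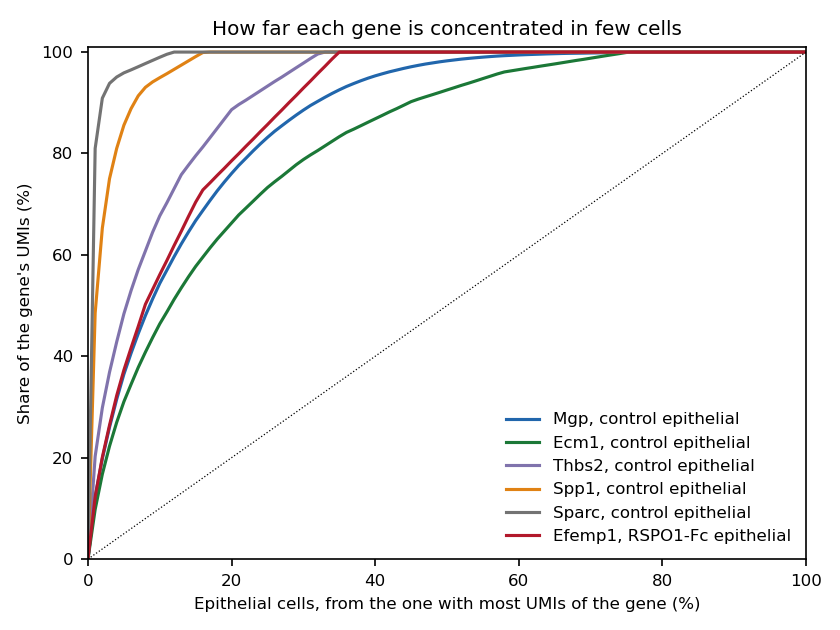
Cumulative share in percent of a gene's UMIs (y axis) held by epithelial cells ranked from the one with most UMIs of that gene (x axis, percent of cells), in control epithelial cells for 5 genes and in RSPO1-Fc epithelial cells for Efemp1. The dotted line marks an even spread. The top 5% of cells hold 95.9% of the Sparc and 31.0% of the Ecm1 UMIs.

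Across control epithelial cells Mgp and Ecm1 took one direction with Sox11, Pnliprp2, Alox12, Mki67 and Lgr5, and Spp1 and Thbs2 the other, while Krt20, Prox1 and Clu did not part the genes in this way. Mgp stood at 2754 CPM in the 327 cells with 3 or more UMIs of Sox11, a transcription factor of progenitor cells, and at 759 CPM in the 1372 cells with 0 (ratio 3.63, 3.58 to 3.68). It stood at 554 CPM in the 342 cells with 3 or more UMIs of the proliferation marker Mki67 and at 1520 CPM in the 1309 with 0, 2.74-fold lower (2.69 to 2.80). It was 3.60-fold higher with Prox1, a transcription factor linked to Wnt activity in colorectal tumours (1609 cells against 126 with 0). The 126 cells stood at 115 CPM Sparc, against 41.5 CPM in the 1609, and were not sorted by stromal markers. With Lgr5, a stem cell marker and R-spondin receptor, Mgp was 1.86-fold lower.

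Ecm1 showed the same directions, with 254 CPM in Sox11 cells against 89.8 CPM in cells without, 60.9 against 159 CPM for Mki67 and 83.1 against 151 CPM for Lgr5. For Spp1 the directions were opposite, with 6.45 against 42.4 CPM for Sox11, 50.2 against 27.0 CPM for Mki67 and 54.3 against 16.9 CPM for Lgr5. These Spp1 levels rest on few cells. Of 2259 epithelial Spp1 UMIs 321 lay in 1 cell and 48.5% in the top 1% of cells. The 90 cells rich in stromal markers, with 22.5% of the Spp1 UMIs, were kept, and their part was not tested. Thbs2 stood at 8.57 against 38.0 CPM for Sox11, 40.7 against 22.3 CPM for Mki67 and 36.1 against 26.4 CPM for Lgr5. Cells with 3 or more Mki67 UMIs were larger, with a median of 50259 UMIs against 24500 in those with 0. The same held for Alox12 (46764 against 22801) and Lgr5 (38156 against 25054). The part of cell size in these ratios was not tested. For Sox11 the medians were 29191 and 27723 UMIs, and for Pnliprp2 28309 and 27308.

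With Krt20, a keratin of differentiated epithelium, Mgp was 6.43-fold lower (5.66 to 7.34) and Ecm1 higher (ratio 1.49, 1.30 to 1.70) in 25 cells against 1826 with 0. Prox1 went with a higher level of Thbs2 (ratio 1.23, lower bound 1.03) and Ecm1 (1.19, 1.09 to 1.31), as of Mgp, and with a lower level of Spp1 (0.270, 0.243 to 0.302). Clu, a gene of regenerating epithelium, went with higher Ecm1 (1.32, 1.23 to 1.43) and Spp1 (1.51, 1.30 to 1.76), while the ratio was 0.916 (0.896 to 0.936) for Mgp and 0.918 (0.802 to 1.05) for Thbs2. Cells with the marker were larger for Krt20 (median 44804 against 27468 UMIs) and Clu (33097 against 21974). For Prox1 the medians were 27887 and 30449 UMIs.

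In RSPO1-Fc epithelial cells, too, Ecm1 was higher with Sox11 (46.3 CPM in 103 cells against 5.43 CPM in 2399) and lower with Mki67 (3.07 CPM in 859 cells against 10.6 CPM in 1095). Efemp1 there stood at 36.7 CPM in the 560 cells with 3 or more UMIs of Krt20 and at 19.8 CPM in the 1376 with 0 (ratio 1.86, 1.66 to 2.08). It stood at 31.3 against 20.3 CPM for Mki67 and at 14.9 against 31.7 CPM for Prox1. Ecm1 stood at 14.4 against 6.64 CPM for Prox1, so the pair took opposite directions with Mki67 and with Prox1. Cells with the marker were larger for Mki67 (median 32181 against 18727 UMIs) and Krt20 (28551 against 20717). They were smaller for Prox1 (20319 against 23148) and Sox11 (21083 against 23584). The part of cell size was not tested here either.

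**Figure D5:**
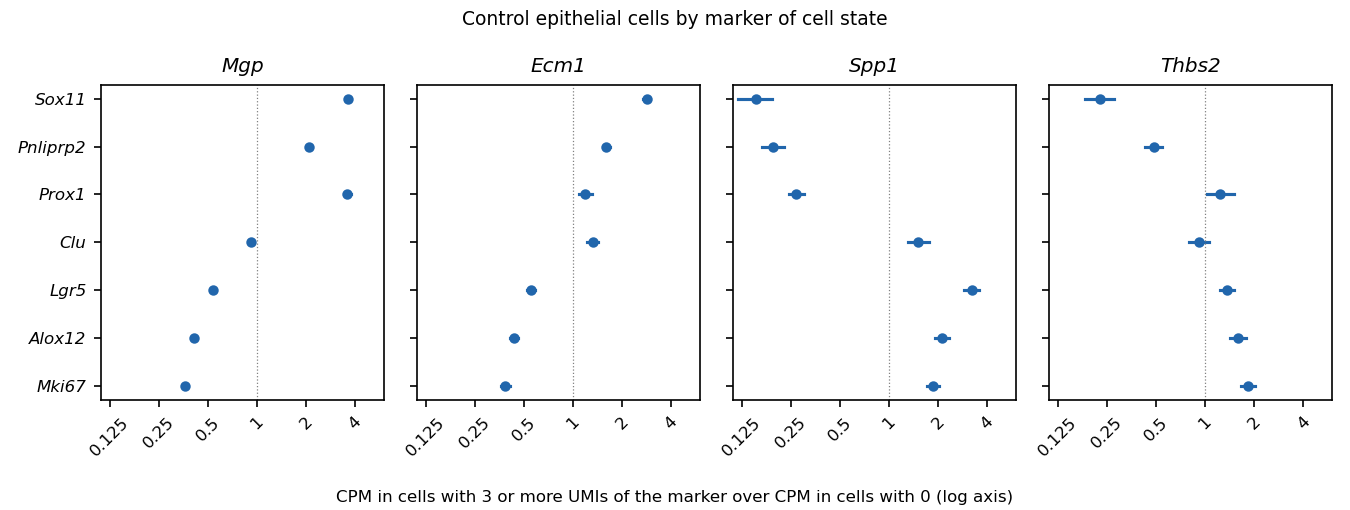
Ratio on a log axis of a gene's CPM in control epithelial cells with 3 or more UMIs of a state marker to its CPM in cells with 0, for Mgp, Ecm1, Spp1 and Thbs2. Bars are 95% counting intervals and the dotted line marks equal levels. With Sox11 the ratio is 3.63 for Mgp and 2.83 for Ecm1, and 0.152 for Spp1 and 0.226 for Thbs2.

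Genes most like each member were sought over the 1881 control epithelial cells, which share 1 library. Correlations are of the log-scaled UMIs per 10000 and describe these cells only. Mgp ran most with Pam, an enzyme that amidates peptides (r = 0.512), and also with the lactate dehydrogenase gene Ldhb (r = 0.462). Ecm1 ran with the retinol transporter Stra6 (r = 0.553), Pam (r = 0.53) and the plasminogen activator Plat (r = 0.467). Mgp and Ecm1 had r = 0.358 with each other. Spp1 ran with the antimicrobial lectins Reg3b (r = 0.402) and Reg3g (r = 0.36) and with Pigr, the transporter of secreted immunoglobulins (r = 0.355).

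Sparc ran with the vascular and basement membrane genes Igfbp7 (r = 0.709), Col4a1 (r = 0.639) and Col18a1 (r = 0.509). Without the 90 cells rich in stromal markers the highest correlation of Sparc was 0.298, under the 0.3 needed for naming, while Pam remained first for Mgp (r = 0.512), Stra6 for Ecm1 (r = 0.563) and Reg3b for Spp1 (r = 0.428). Thbs2 had no gene at 0.3 in either set. Efemp1, with 29 UMIs, is too sparse there to read.

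Over the 6 cell groups the most similar profiles were those of Apoe for Spp1 (r = 0.991 over 6 points of log2 CPM), a lipid carrier gene at 25920 CPM in macrophage-like cells, and of Serpinh1 for Sparc (r = 0.996), a collagen chaperone gene. For Mgp (Ppfia1), Ecm1 (Gpr107), Efemp1 (Naa20) and Thbs2 (Ift20) the first genes were widely expressed ones. Ppfia1, for example, ranged between 32.8 and 74.5 CPM. Each of the 6 genes had a first gene at r of 0.954 or more, as the best of many genes over 6 points can reach. The fibroblast-like points of Spp1 and Mgp rested on 1 cell each, and Apoe stood at 1901 CPM in that class. Nothing is read from these likenesses.

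Other genes of the same matrix families were read from lists chosen with earlier results known. Over all 6911 genes at 20 CPM, 18.7% were lower and 7.23% higher in RSPO1-Fc epithelial cells. The lists are small, and their counts are given as a description. Of 17 matricellular protein genes 4 reached 20 CPM in either epithelial group, of which 3 were lower in RSPO1-Fc cells and 0 higher. Thbs1, the thrombospondin related to Thbs2, stood at 37.5 CPM in RSPO1-Fc and 279 CPM in control epithelial cells (7.44-fold lower, 7.14 to 7.75). Spock2, a testican of the Sparc family, stood at 9.82 and 847 CPM, first in RSPO1-Fc and then in control epithelial cells (86.3-fold lower), and Smoc2, of the same family, was 3.61-fold lower. Ccn1, listed as Cyr61, was under 2-fold at 227 CPM in RSPO1-Fc and 154 CPM in control epithelial cells.

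Of 16 fibulin and elastic fibre genes 3 reached 20 CPM, of which 2 were lower, the latent TGF-β binding proteins Ltbp1 (15.2-fold) and Ltbp4 (2.13-fold, 1.94 to 2.34). Ltbp4, at 20.3 CPM in control epithelial cells, lay at the edge of both call limits. Fbln1, another fibulin, stood at 38.6 CPM in RSPO1-Fc and 36.9 CPM in control epithelial cells, a ratio of 1.05. Among 15 receptor genes 6 reached 20 CPM, 1 was higher and 0 lower, where 7.23% of all genes were higher and 18.7% lower. Itgb6, an integrin chain of epithelia, was higher at 48.4 CPM in RSPO1-Fc and 13.5 CPM in control epithelial cells, while Itgb1, Cd47 and Egfr were under 2-fold.

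Of 11 genes of modifying enzymes and partners 5 reached 20 CPM, with 1 higher and 2 lower, beside the same 7.23% and 18.7% of all genes. Bmp2 and Bmp7, bone morphogenetic proteins of the kind that Mgp binds, were 5.85-fold and 4.05-fold lower. The basement membrane proteoglycan gene Hspg2 was 2.01-fold higher (1.83 to 2.20) at 20.2 CPM in RSPO1-Fc epithelial cells, at the edge of both call limits. Vkorc1, which regenerates vitamin K for the carboxylation of Mgp, was under 2-fold at 24.5 CPM in RSPO1-Fc and 15.9 CPM in control epithelial cells.

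Of 9 mineral and Gla protein genes 1 reached 20 CPM, Gas6, a Gla protein and ligand of TAM receptors, which was 51.2-fold lower at 1.31 CPM in RSPO1-Fc and 67.0 CPM in control epithelial cells. Of 13 protease and inhibitor genes 7 reached 20 CPM, with 5 lower and 0 higher. They included Htra1 (18.5-fold lower), Mmp14 (13.8-fold), Plat (9.80-fold) and the inhibitor Timp1 (6.84-fold). The share of all genes called was 18.7% lower and 7.23% higher.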

How the data were processed

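The deposited matrices hold raw counts of UMIs for every barcode, cells and empty droplets alike. Alignment to mm10 and the 10x v2 kit are stated per the labels' protocols. Tools named in the submitters' processing notes are Cell Ranger 2.1.1 and Seurat 3.1.1, while the control matrix names version 3.1.0 per the file headers and lists 31053 genes, against 27998 in the RSPO1-Fc matrix. Tables were joined on 27514 shared Ensembl identifiers.

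The cell limit was 0.1 of the 99th percentile among the 5000 largest barcode totals. A control cell with under 5 Epcam UMIs joined the class with the largest share of its markers detected, if that share was at least 0.5, led the next by 0.25, and its markers had at least 20 UMIs. This rule was set after seeing the data. No doublet caller was run. UMIs were summed per cell group and scaled to CPM over shared genes. Differences were called at 20 CPM in either group and 2-fold, and log2 ratios used a pseudocount of 1 CPM. Intervals are 95%, exact Poisson for levels and Clopper-Pearson for shares and, conditional on the sum, for ratios. Limits for 0 counts are those of 3 counts. Thinned shares are hypergeometric expectations at 3000 UMIs. Ratios and calls were tested on simulated data. Python 3.11.15, scipy 1.17.1, R 4.3.3 and edgeR 4.0.16 (TMM) were used.

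The 6 genes, the gene lists and the markers were chosen with earlier results of these data known. Named genes were the 6, up to 4 per list with the largest log2 ratio at 20 CPM, and up to 3 most correlated genes per member (r of at least 0.3 over cells). Not every gene chosen by this rule is reported here.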

Additional observations from a re-analysis of the deposited data

How the results depend on the processing

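No paired analysis was possible because each group held 1 library. RSPO1-Fc against control epithelial cells called 5 of the 6 genes lower and 1 higher. That count of lower genes was 3 with epithelial cells of 0 stromal marker UMIs and 3 after the free RNA subtraction, both times because Spp1 and Sparc were under 20 CPM. Log2 ratios kept their sign under all 14 alternatives, between −11.49 and −7.81 for Mgp, −4.37 and −3.36 for Ecm1, −7.18 and −2.81 for Thbs2, −5.66 and −2.80 for Spp1, −6.60 and −3.02 for Sparc, and 2.57 and 5.68 for Efemp1. Over all genes 985 were higher and 766 lower with TMM, and 2577 and 7387 without the 20 CPM filter. Without that filter, control epithelial cells were higher and lower in 8631 and 3457 genes against fibroblast-like, 8792 and 3168 against endothelial-like (2 of the 6 genes lower), 9738 and 3017 against pericyte-like, and 9843 and 2871 against macrophage-like cells. Without the 1 cell with most UMIs of a gene, chosen after seeing the data, 2 of the 6 genes were higher against fibroblast-like cells, where the Spp1 log2 ratio turned to 2.33, and 2 against pericyte-like cells. The count against pericyte-like cells was also 2 with the mean over cells and with a gap of 0.4 between marker shares. At a cell limit of 0.2 of the percentile, which left 2 pericyte-like cells, 1 of the 6 genes was lower against them, and 2666 genes overall.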

Other observations

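The Mgp transcripts of the RSPO1-Fc library lay mostly outside its called cells. Barcodes with over 100 and up to 500 UMIs held 934 Mgp UMIs in 474 of 66175 barcodes, against 22 UMIs in all called cells. In the 82 of these barcodes with 3 or more Mgp UMIs, which held up to 25 Mgp UMIs and had a median of 160 UMIs in all, Acta2, smooth muscle actin, stood at 5131 CPM, against 69.2 CPM in the 65701 without Mgp. Igfbp7 stood at 4989 against 58.4 CPM, Sparc at 2637 against 30.5 CPM, the collagen-binding proteoglycan gene Dcn at 2352 against 21.7 CPM, the smooth muscle gene Tagln at 1924 against 15.7 CPM, and the elastin gene Eln at 1568 against 4.72 CPM. Epcam stood at 428 against 1302 CPM. Pecam1, on 4 UMIs, stood at 285 against 6.38 CPM, and Pdgfra, on 2 UMIs, at 142.5 against 0.787 CPM. Rgs5, C1qa and Thbs2 had 0 UMIs in the 82 barcodes, which are too small for 0 UMIs to set a low bound. These genes were chosen after their values had been seen, the 82 barcodes were selected by Mgp itself, and what these barcodes contain was not tested.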
